A study of Mus musculus with 8 samples.

Results

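The 40 genes described here encode the ligands and receptors of the BMP and TGF-beta family, 29 ligands and 11 receptors, out of 18996 genes measured in the distal tips of the E12.5 mouse lung. The members were chosen by name, from a list of 41 genes of this family. *Gdf15* was not analysed here. Each gene was read from 1 spot, the one with the highest mean signal over the 8 samples.

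Epithelium and mesenchyme were separated from distal buds of wild type embryos, 4 samples of each tissue, and each of the 4 arrays carried 1 epithelium sample and 1 mesenchyme sample. The buds were cut out with their mesenchyme and mesothelium, digested in dispase, and the epithelium was drawn away with needles, so the mesenchyme samples also hold the mesothelium. No treatment, allele or transgene was part of this comparison. The sample labels and the methods name C57BL/6 mice, whereas the series description names BALB/c and 4 embryonic mice, and the labels call the material a homogenate of the organ. On every array the epithelium was labelled with Cy3 and the mesenchyme with Cy5, without a dye swap, so an effect of the dye and of the tissue cannot be told apart. Values are log2 signals of a spot, differences are epithelium minus mesenchyme on the log2 scale with their standard error (SE), and a gene was called higher in a tissue at a limma p-value under 0.05 after Benjamini-Hochberg adjustment over all 18996 genes. A signal depends on the probe, so levels are compared between samples. The place of a gene among all genes is used only to mark a low signal. In bulk tissue, fewer cells of a type and less RNA per cell cannot be told apart.

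Ligands of this family are secreted dimers that bring together type I and type II receptor kinases on the receiving cell. BMPs and many GDFs lead to SMAD1, SMAD5 and SMAD9, while TGF-betas, activins and Nodal lead to SMAD2 and SMAD3, and both branches share SMAD4. In the branching lung, BMP4 is known as a signal of the distal tips, and TGF-beta signalling is known to restrain branching and to promote matrix deposition.

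The tissue labels were checked against marker genes. All 12 epithelium markers were higher in the epithelium samples (median difference 4.29), among them *Foxa2* and *Grhl2*, and all 12 mesenchyme markers were higher in the mesenchyme samples (median -1.56), among them *Wnt2* and *Fgf10*. Markers of other cells divided as well. The mean level of 10 endothelium markers lay between 5.63 and 5.96 in the epithelium samples and between 9.24 and 9.32 in the mesenchyme samples, with all 10 called. Erythroid markers (6 of 7 called, median -3.68), leukocyte markers (6 of 6, median -1.79) and mesothelium markers (5 of 7, with 2 called the other way, median -3.93) were on the mesenchyme side. Smooth muscle markers were on the epithelium side, with 6 of 8 higher there and 1 higher in the mesenchyme, and a mean level of 10.74 to 10.83 against 8.63 to 8.83. In the list for neural crest and neurons, 6 of 7 genes were called on the epithelium side (5.21 to 5.34 against 3.79 to 3.94). These signals have no true zero, so none of the markers can be called absent from a tissue, and the part of these cells in the differences of the ligands and receptors was not tested.

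Of the 40 genes, 13 were called for the epithelium (higher there) and 9 for the mesenchyme, and 18 were not called. Over all genes, 21.2% were called higher in the epithelium, 24.8% higher in the mesenchyme and 45.9% in either direction, so the share of called members (55%) was near that of the array. A called difference of at least 1 was seen for 6 members on the epithelium side and 5 on the mesenchyme side, 11 of 40, against 13.9% of all genes. With an offset of 15 added to the linear signal, which shrinks differences at low signal, these were 4 and 3 members, against 9.91% of all genes. In 21 members the samples of the 2 tissues did not overlap, against 44.3% of all genes. The median difference was 0.08 for the members and -0.03 for all genes, and the median size of the difference was 0.29 and 0.24. Without the dimmest 30% of genes, the median size was 0.63 for the 30 members left and 0.29 for all genes left, which was not tested. All 22 called members had the same direction on all 4 arrays, which choosing them by a call on these same samples makes likely. The 10 members among the dimmest 30% of genes (mean signal under 3.315) were *Bmp2*, *Bmp8a*, *Bmp10*, *Bmp15*, *Gdf2*, *Gdf3*, *Mstn*, *Inhbc*, *Lefty2* and *Acvr1c*, and none of them was called by limma, although the unadjusted 95% interval of *Inhbc* (0.03 to 0.38) left out 0. Of all 5699 genes as dim, 1015 were called. By role, of 29 ligands, 8 were called for each tissue, and 5 on each side differed by at least 1, whereas of 11 receptors 5 were called for the epithelium and 1 for the mesenchyme, and *Acvr2b* alone differed by at least 1 (0.97 with the offset). This contrast between ligands and receptors was not tested.

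**Figure D1:**
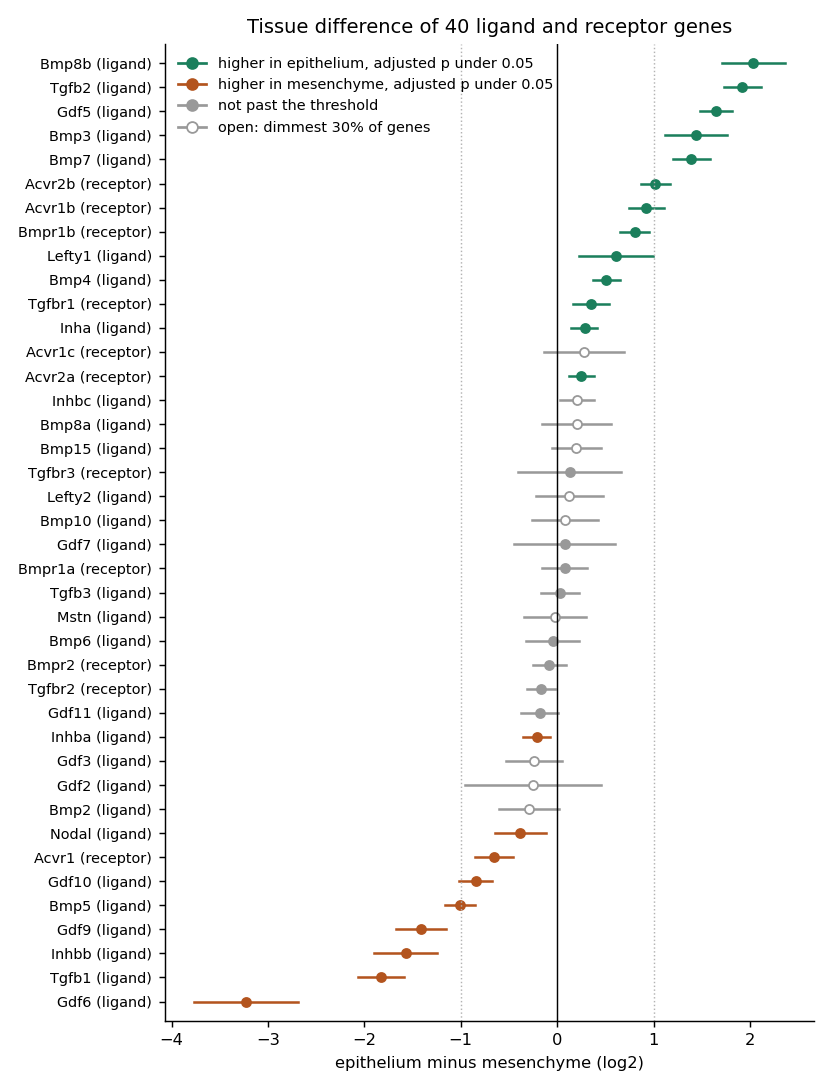
Difference between the tissues (epithelium minus mesenchyme, log2) for the 40 ligand and receptor genes, ordered by size. Points are the limma estimates of 4 against 4 samples, lines are 95% confidence intervals without adjustment for multiple testing, colours give the call, and open points are genes among the dimmest 30%. The values run from -3.23 for Gdf6 to 2.03 for Bmp8b, both read against a low signal in the other tissue (-2.10 and 0.84 with an offset of 15 on the linear signal), and the receptors lie between -0.65 and 1.02.

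The 250 bases before the transcription start were read from RefSeq (GRCm38.p6) for 29 of the 40 genes. To show the sequence beside the members that differed most, the windows of the 2 genes with the largest called difference on each side, among the genes with a window, are printed 5′ to 3′ on the strand of the gene. These are *Bmp8b* (chr4:123104911-123105160, plus strand) and *Tgfb2* (chr1:186705990-186706239, minus strand), both higher in the epithelium, and *Tgfb1* (chr7:25686752-25687001, plus strand) and *Inhbb* (chr1:119422249-119422498, minus strand), both higher in the mesenchyme. The choice follows the deposited scale, and with an offset of 15 on the linear signal *Acvr2b* (0.97) and *Acvr1b* (0.91) would stand ahead of *Bmp8b* (0.84), and *Bmp5* (-0.89) ahead of *Inhbb* (-0.83). Capitals mark CAGAC, the short element that SMAD3 and SMAD4 bind, where it is read on this strand.
Bmp8b: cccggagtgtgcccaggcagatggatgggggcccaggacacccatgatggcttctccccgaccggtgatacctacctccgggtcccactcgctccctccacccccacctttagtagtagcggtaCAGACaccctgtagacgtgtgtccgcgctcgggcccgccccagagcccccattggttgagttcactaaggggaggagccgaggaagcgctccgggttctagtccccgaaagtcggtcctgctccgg
Tgfb2: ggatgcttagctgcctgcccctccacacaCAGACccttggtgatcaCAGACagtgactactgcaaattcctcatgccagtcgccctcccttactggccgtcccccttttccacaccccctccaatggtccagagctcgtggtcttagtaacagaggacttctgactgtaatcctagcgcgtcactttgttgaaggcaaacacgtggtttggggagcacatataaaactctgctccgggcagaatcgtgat
Tgfb1: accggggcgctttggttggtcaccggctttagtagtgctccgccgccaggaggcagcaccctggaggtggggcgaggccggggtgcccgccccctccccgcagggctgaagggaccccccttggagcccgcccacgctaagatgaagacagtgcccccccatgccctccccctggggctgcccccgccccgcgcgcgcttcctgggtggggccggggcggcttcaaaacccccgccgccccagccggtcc
Inhbb: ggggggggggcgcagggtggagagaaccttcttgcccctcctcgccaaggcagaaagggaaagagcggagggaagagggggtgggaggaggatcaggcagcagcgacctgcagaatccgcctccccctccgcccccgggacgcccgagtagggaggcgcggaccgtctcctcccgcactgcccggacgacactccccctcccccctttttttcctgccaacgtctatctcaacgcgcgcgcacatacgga
On either strand, CAGAC was found 1 time before *Bmp8b*, 2 times before *Tgfb2* and in neither of the windows before *Tgfb1* and *Inhbb*. Other called members went both ways. *Bmp5* and *Gdf10*, higher in the mesenchyme, each held it 1 time, and *Bmp4* and *Acvr1b*, higher in the epithelium, did not hold it. The element is short and common, with 42.1% of 27025 promoters holding it when the first window listed for each gene was searched, and 13 of the 29 members held it in that window. Of the members, 3 had more than 1 window, and over all 33 member windows 15 held it, from 14 genes. GGCGCC, a GC-rich element bound by SMADs, was found before *Bmpr1a*, *Bmpr2* and *Tgfbr1*, 3 of 29 genes, against 9.54% of all promoters. TGTTTAC, a forkhead element, was in none of the 29, against 3.09% of all. The first windows of the members had a median of 64% G and C, against 52% over all promoters. All promoters here means the 27025 from RefSeq, more than the 18996 genes measured, so this background is a different set of genes. These counts describe letters in a window and were not tested.

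Among the 10 BMP genes, *Bmp3*, *Bmp4*, *Bmp7* and *Bmp8b* were higher in the epithelium and *Bmp5* in the mesenchyme (50% called, against 45.9% of all genes). *Bmp4*, the BMP of the distal tip, stood at 9.27, 9.16, 9.20 and 9.29 in epithelium and at 8.75, 8.63, 8.68 and 8.81 in mesenchyme. The tissues did not overlap, but the step between them was small, 0.51 (SE 0.06, adjusted p = 0.000138 from limma), or 1.42-fold. All 10 spots of *Bmp4* were called, with differences from 0.47 to 0.55. They belong to 1 transcript record and were read on the same samples, so they add no replicates. *Bmp7*, a BMP of many epithelia, stood at 11.48, 11.59, 11.71 and 11.72 in epithelium and at 10.08, 10.18, 10.36 and 10.30 in mesenchyme. Its difference of 1.39 (SE 0.08) came with 11 spots of 1 transcript record, all called, which spanned only 1.39 to 1.47. These spots too were read on the same samples. *Bmp3*, which encodes a BMP known to oppose other BMPs in bone, read 6.84, 6.74, 6.59 and 7.03 against 5.58, 5.10, 5.17 and 5.58. The lowest epithelium sample stood above the highest mesenchyme sample, with a difference of 1.44 (SE 0.14, adjusted p = 3.67e-05 from limma) and 1.11 on its second spot.

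*Bmp8b*, known for its role in male germ cells and brown fat, had the largest difference on the epithelium side on the deposited scale, a rank that rests on a mesenchyme signal near the bottom of the array. Its signal stood at 4.25, 4.58, 4.20 and 4.53 in epithelium and at 2.05, 2.66, 2.27 and 2.43 in mesenchyme, which do not overlap. The difference was 2.03 (SE 0.14, adjusted p = 3.94e-06 from limma), a 4.1-fold step between signals near the bottom of the array. With an offset of 15 added to the linear signal it was 0.84 and still called, below *Tgfb2* (1.90), *Bmp7* (1.38), *Bmp3* (1.17), *Gdf5* (1.17), *Acvr2b* (0.97) and *Acvr1b* (0.91). In RefSeq, *Bmp8b* overlaps *Oxct2b*, which was not analysed here, so an overlap at *Bmp8b* was not tested. *Bmp8a*, its neighbour in sequence, overlaps *Oxct2a*. The probe of *Oxct2a* gave a low signal and was higher in the epithelium, 3.94 against 3.06 (0.88, SE 0.25, adjusted p = 0.0184 from limma). *Bmp8a* itself was not called (0.20, SE 0.16).

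*Bmp5*, a BMP of the mesenchyme in many organs, went the other way. It stood at 6.37, 6.28, 6.21 and 6.26 in epithelium and at 7.43, 7.23, 7.19 and 7.32 in mesenchyme. The highest epithelium sample lay below the lowest mesenchyme sample, and the difference was -1.01 (SE 0.07, adjusted p = 3.05e-06 from limma). Of its 3 spots, 2 were called, and the dimmest showed -0.05.

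*Bmp2*, often studied beside *Bmp4* in the lung, was not called and gave little signal. Its samples ranged from 2.73 to 3.19 in epithelium and from 3.06 to 3.61 in mesenchyme, and the tissues overlapped. None of its 10 spots was called, with differences from -0.35 to 0.36 around a mean signal of 2.80 to 3.15. *Bmp6* (-0.05), *Bmp10* (0.09), a BMP of the heart, and *Bmp15* (0.20), a BMP of the oocyte, were not called either, and their tissues overlapped. The 95% interval of the difference ran from -0.60 to 0.02 for *Bmp2* and from -0.06 to 0.46 for *Bmp15*, at signals so low on the array that a difference in RNA may not be detectable.

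**Figure D2:**
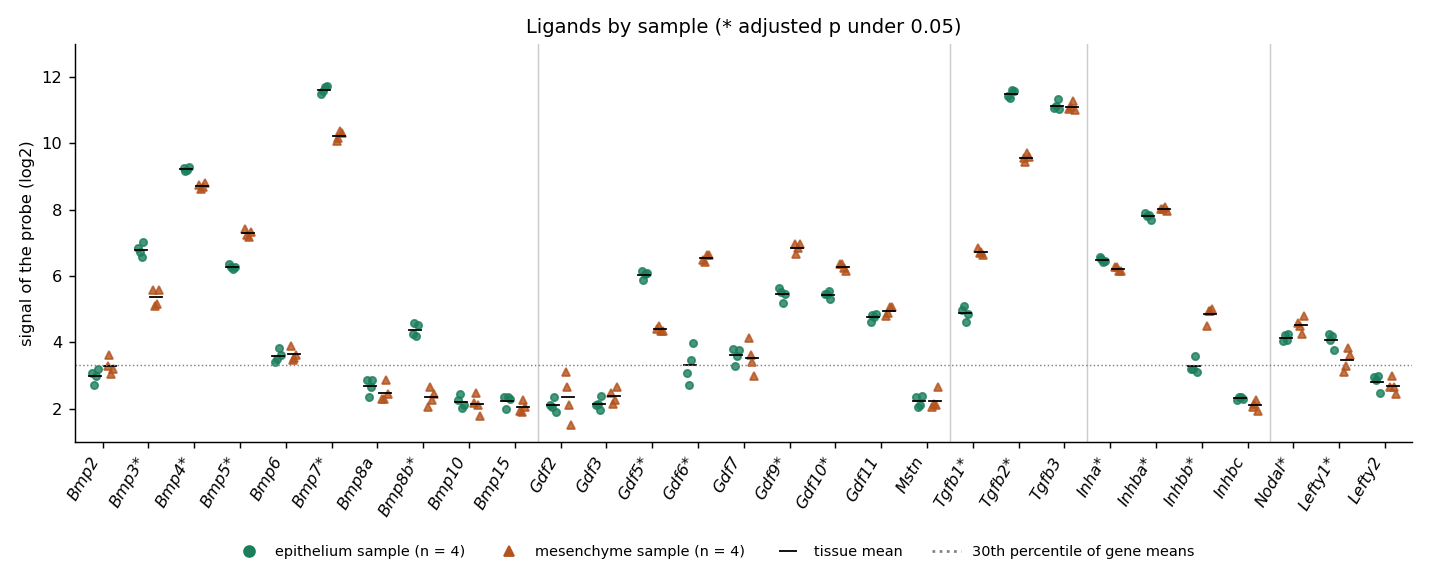
Signal of the probe (log2) in every sample for the 29 ligand genes, in the order of BMPs, GDFs, TGF-betas, activin and inhibin subunits, and Nodal with the Leftys. Circles are the 4 epithelium samples, triangles the 4 mesenchyme samples, black bars the tissue means, and the dotted line is the 30th percentile of gene means. Tgfb2 stands higher in the epithelium, Tgfb1 and Gdf6 stand higher in the mesenchyme, and Tgfb3 differs by 0.03.

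The GDFs were divided between the tissues, with 1 of 9 called for the epithelium and 3 for the mesenchyme. Their share of calls (44.4%) was near that of all genes (45.9%). *Gdf6*, a ligand of joint and skull formation, had the largest difference of all 40 genes. Its signal stood at 3.08, 2.73, 3.48 and 3.97 in epithelium and at 6.49, 6.42, 6.63 and 6.63 in mesenchyme. The epithelium values were scattered around the 30th percentile of gene means, and the mesenchyme values were tight and well above it. The difference was -3.23 (SE 0.24, adjusted p = 5.06e-06 from limma), 9.35-fold, and -2.10 with the offset of 15. *Gdf5*, its close relative in joint formation, was turned the other way, with signals of 6.15, 5.87, 6.06 and 6.09 in epithelium and 4.41, 4.49, 4.34 and 4.35 in mesenchyme. The tissues were far from overlapping, at a difference of 1.65 (SE 0.07, adjusted p = 1.87e-07 from limma). *Gdf7*, the remaining gene of this trio, scattered within both tissues, with an epithelium mean of 3.62 (SD 0.23) and a mesenchyme mean of 3.54 (SD 0.47). Its tissues overlapped and it was not called (0.08, SE 0.23), so the 3 relatives had 3 different outcomes.

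*Gdf9*, known as a factor of the oocyte, stood at 5.65, 5.52, 5.18 and 5.45 in epithelium and at 6.97, 6.67, 6.85 and 6.96 in mesenchyme. The tissues did not overlap, and the difference was -1.41 (SE 0.11, adjusted p = 8.58e-06 from limma). *Gdf9* overlaps *Uqcrq*, a subunit of a respiratory complex, in RefSeq, and the probe of *Uqcrq* was not called (-0.06, SE 0.07). By contrast, *Txndc5*, which overlaps *Bmp6* (0.28, SE 0.08), and *Ldah*, which overlaps *Gdf7* (0.18, SE 0.06), were called for the epithelium. *Gdf10*, also named BMP3B, was likewise higher in the mesenchyme, with 5.47, 5.45, 5.55 and 5.29 against 6.36, 6.37, 6.26 and 6.15, a 1.8-fold step. *Gdf11*, which patterns the axial skeleton, was not called in the unpaired comparison (-0.18, SE 0.08, adjusted p = 0.118 from limma), but the epithelium sample was the lower on all 4 arrays, and with the array as a replicate block its adjusted p was 0.0372. *Gdf3*, a ligand of the early embryo, moved likewise from 0.169 to 0.045 with the block (difference -0.24), at a signal under 2.7 in every sample. *Gdf2*, the circulating BMP9 (-0.25, SE 0.31), and *Mstn*, the muscle factor myostatin (-0.02), were dim in both tissues and not called.

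The 3 TGF-beta genes gave 3 different patterns. *Tgfb2* was higher in the epithelium, with 11.43, 11.37, 11.61 and 11.57 against 9.56, 9.43, 9.72 and 9.59 in the mesenchyme. The gap between the lowest epithelium sample and the highest mesenchyme sample was several times the spread within either tissue, and the difference was 1.92 (SE 0.08, adjusted p = 1.38e-07 from limma), 3.79-fold, on its only spot. *Tgfb1* was higher in the mesenchyme, with signals of 4.98, 5.11, 4.63 and 4.87 in epithelium and 6.85, 6.71, 6.73 and 6.63 in mesenchyme. Again no sample of one tissue reached the other, and the difference was -1.83 (SE 0.10, adjusted p = 1.01e-06 from limma), 3.56-fold. All 10 spots of *Tgfb1*, from 1 transcript record and the same samples, were called, from -2.12 to -1.83. *Tgfb3* stood at 11.06, 11.12, 11.33 and 11.05 in epithelium and at 11.05, 11.10, 11.27 and 11.01 in mesenchyme. On each array the 2 tissues lay close together, and the difference of 0.03 had a 95% interval from -0.16 to 0.23, which leaves out differences as large as those of *Tgfb1* and *Tgfb2*. The 250 bases printed above for *Tgfb2* hold CAGAC and those for *Tgfb1* do not, but 42.1% of all promoters hold it, and so do members called for either tissue. Endothelium and blood cell markers were higher in the same samples as *Tgfb1*, and smooth muscle markers in the same samples as *Tgfb2*, and their part was not tested.

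**Figure D3:**
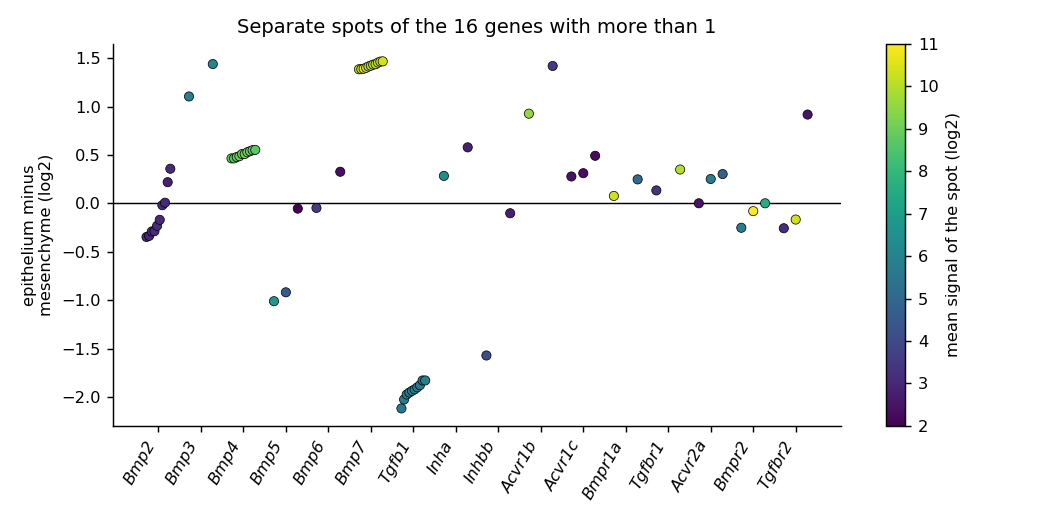
Difference between the tissues (log2) for each separate spot of the 16 genes that had more than 1 spot, with the colour giving the mean signal of the spot (log2). The spots of Bmp4, Bmp7 and Tgfb1 lie close together, those of Bmp2 scatter around 0, and a dim spot of Tgfbr2 lies at 0.92 while its brightest lies at -0.17. All spots of a gene were read on the same samples, and those of Bmp2, Bmp4, Bmp7 and Tgfb1 belong to 1 transcript record each.

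Activins are dimers of inhibin beta subunits, and inhibins pair a beta subunit with the alpha subunit. *Inhbb*, the beta B subunit, was higher in the mesenchyme, with signals of 3.19, 3.19, 3.60 and 3.11 in epithelium and 4.50, 4.93, 4.93 and 5.02 in mesenchyme. The tissues did not overlap (-1.57, SE 0.14, adjusted p = 2.3e-05 from limma), although its second, dimmer spot differed by -0.10 only and was not called. *Inhba*, the beta A subunit, differed by -0.21 (SE 0.06, adjusted p = 0.0208 from limma), with 7.91, 7.82, 7.83 and 7.69 against 8.01, 8.03, 8.09 and 7.96. This call was lost without epithelium replicate 4 (adjusted p = 0.0511), without mesenchyme replicate 3 (0.0531), without both samples of array 2 (0.0900) or 3 (0.0768), and after cyclic loess (0.0557). *Inha*, the alpha subunit, was higher in the epithelium by 0.28 (SE 0.06), with its lowest epithelium sample at 6.43 and its highest mesenchyme sample at 6.29, and both of its spots were called. *Inhbc*, a subunit of the liver, missed the threshold (0.21, adjusted p = 0.0528 from limma) and passed it with the array as a replicate block (0.0267), at signals under 2.4.

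Nodal and the Lefty proteins, which inhibit Nodal, set the left-right axis of the embryo. *Nodal* stood at 4.05, 4.23, 4.06 and 4.25 in epithelium and at 4.58, 4.49, 4.25 and 4.80 in mesenchyme. The mesenchyme call (-0.38, SE 0.12, adjusted p = 0.0255 from limma) stood although the tissues met at 4.25. It was lost in 6 of the repeats that left out samples, with adjusted p between 0.0551 and 0.129, namely without epithelium replicate 1 or 3, without mesenchyme replicate 1, and without array 1, 2 or 4. *Lefty1* stood at 4.25, 4.08, 4.20 and 3.77 in epithelium and at 3.11, 3.30, 3.83 and 3.63 in mesenchyme, which overlap. Its difference of 0.61 (SE 0.17, adjusted p = 0.0169 from limma) was 0.43 without array 1 (adjusted p = 0.0888) and 0.55 without array 2 (adjusted p = 0.0896), and was no longer called in either case. *Lefty2* was not called (0.13, SE 0.15).

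Of the 6 type I receptors, 3 were called for the epithelium and 1 for the mesenchyme (66.7%, against 45.9% of all genes). *Acvr1b*, the activin receptor ALK4, stood at 9.99, 10.10, 10.02 and 9.86 in epithelium and at 9.12, 9.21, 8.99 and 8.95 in mesenchyme, without overlap. The difference was 0.93 (SE 0.08, adjusted p = 1.53e-05 from limma), and 1.42 on its dimmer spot. *Bmpr1b*, the BMP receptor ALK6, read 6.67, 6.77, 6.55 and 6.61 against 5.93, 5.81, 5.80 and 5.84. This was a step of 0.80 (SE 0.06), 1.75-fold, with narrow spreads in both tissues. *Bmpr1a*, the BMP receptor ALK3, read 10.44, 10.51, 10.23 and 10.24 against 10.35, 10.46, 10.12 and 10.17. The tissues overlapped almost fully, and the 95% interval of the difference ran from -0.15 to 0.31, below the difference of *Bmpr1b*. The epithelium sample was nonetheless the higher on all 4 arrays, and the mean of the 2 spots of *Bmpr1a* was called (0.16, adjusted p = 0.0305 from limma), as it was when spots were averaged by accession (adjusted p = 0.0291).

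*Tgfbr1*, the TGF-beta receptor ALK5, was higher in the epithelium, with 10.14, 10.15, 10.35 and 10.10 against 9.83, 9.77, 10.01 and 9.74. The 2 tissues were close but apart, with a difference of 0.35 (SE 0.08, adjusted p = 0.00766 from limma). The call held on its bright spot only: averaged with the dimmer spot the difference was 0.24 (adjusted p = 0.0934), and on the more variable spot 0.13 (adjusted p = 0.641). *Acvr1*, the BMP receptor ALK2, was the only one of the 11 receptors called higher in the mesenchyme. It stood at 7.52, 7.50, 7.79 and 7.64 in epithelium and at 8.17, 8.16, 8.38 and 8.36 in mesenchyme, a difference of -0.65 (SE 0.09, adjusted p = 0.000276 from limma). *Acvr1c*, the Nodal receptor ALK7, was dim and not called (0.28, SE 0.18), although the mean of its 3 spots was called (0.36, adjusted p = 0.00111 from limma).

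Among the 4 type II receptors, *Acvr2b* and *Acvr2a*, which bind activins and several BMPs and GDFs, were higher in the epithelium. *Acvr2b* stood at 8.95, 8.88, 8.81 and 8.78 in epithelium and at 7.95, 7.85, 7.75 and 7.77 in mesenchyme, the largest difference among the 11 receptors (1.02, SE 0.07, adjusted p = 2.23e-06 from limma). *Acvr2a* read 5.84, 5.99, 5.91 and 5.91 against 5.62, 5.67, 5.73 and 5.61, a smaller step without overlap (0.25, SE 0.06, adjusted p = 0.00575 from limma). It lost its call when its 3 spots were averaged (0.19, adjusted p = 0.0612). In RefSeq *Acvr2a* overlaps *Orc4*, whose probe was not called (-0.13, SE 0.08), and *Acvr1* overlaps *Upp2*, which was not analysed here. *Bmpr2*, the main type II receptor of BMPs, read 11.04, 10.88, 10.77 and 10.94 against 11.07, 10.98, 10.86 and 11.05. These values overlap, and the 95% interval of the difference was -0.25 to 0.09. The epithelium sample was nonetheless the lower on all 4 arrays. With the array as a replicate block *Bmpr2* was still not called (adjusted p = 0.0587 from limma).

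*Tgfbr2*, the type II receptor that binds TGF-beta first, stood at 10.19, 10.31, 10.27 and 10.23 in epithelium and at 10.35, 10.50, 10.49 and 10.34 in mesenchyme. No epithelium sample reached a mesenchyme sample, yet the difference was small, -0.17 (SE 0.06, adjusted p = 0.0538 from limma). With the array as a replicate block the adjusted p was 0.00962. Its 3 spots, each from its own transcript record, did not share a direction, with -0.26, -0.17 and 0.92. The spots at -0.26 and 0.92 were dim, with mean signals of 3.18 and 2.51 against 10.34 for the spot at -0.17. *Tgfbr3*, the co-receptor betaglycan, read 4.05, 3.90, 3.60 and 3.63 against 4.14, 3.48, 3.06 and 3.97. The mesenchyme samples were spread wider than the tissues were apart, and it was not called (0.13, SE 0.23).

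**Figure D4:**
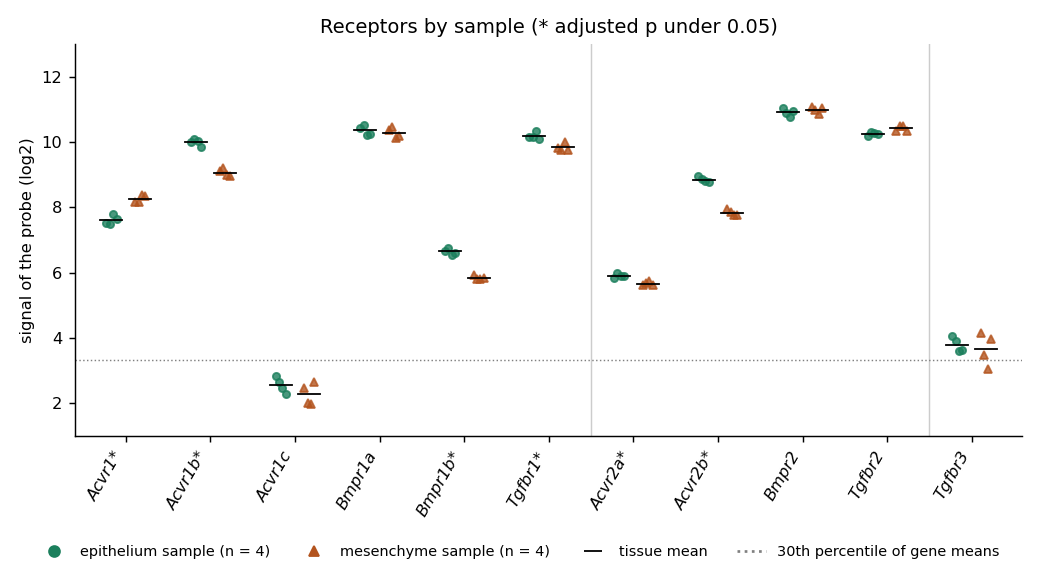
Signal of the probe (log2) in every sample for the 11 receptor genes, type I, type II and type III from left to right. Circles are the 4 epithelium samples, triangles the 4 mesenchyme samples, black bars the tissue means, and the dotted line the 30th percentile of gene means. Acvr1b, Bmpr1b and Acvr2b stand clearly higher in the epithelium, Acvr1 in the mesenchyme, and Bmpr1a and Bmpr2 overlap between the tissues.

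Other genes of the pathway were counted from lists of known components. Beside each count of calls in these lists stands the share over all genes, 21.2% for the epithelium, 24.8% for the mesenchyme and 45.9% in either direction. Of the 6 SMADs that carry the signal, the BMP SMAD gene *Smad9* was higher in the epithelium (1.08, SE 0.23, and 0.48 with the offset of 15), and *Smad5* (-0.25) and the shared *Smad4* (-0.19) were higher in the mesenchyme by small steps. Of 5 genes of the inhibitors inside the cell, *Skil* (0.38) and *Smurf2* (0.24) were higher in the epithelium and none in the mesenchyme. *Smad7* was not analysed here. Of 4 ligands and receptors outside the 40, the anti-Müllerian hormone gene *Amh* was higher in the epithelium (1.29, SE 0.22, and 0.50 with the offset), and its receptor gene *Amhr2* (-0.46) and *Gdf1* (-0.33) in the mesenchyme.

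Differences of co-receptors and secreted antagonists covered a wider range. Of 8 co-receptor and pseudoreceptor genes, 2 were called for the epithelium and 3 for the mesenchyme. *Eng*, the TGF-beta co-receptor of the endothelium (-3.09, SE 0.09), *Cd109*, a co-receptor that limits TGF-beta signalling (-3.01, SE 0.08), and *Bambi*, a receptor without a kinase (-1.64, SE 0.10), were the 3 on the mesenchyme side, and *Rgma*, a BMP co-receptor, led the epithelium side (0.69). Of 17 secreted antagonists, 6 were called for the epithelium and 4 for the mesenchyme, with a median of 0.15. *Cer1*, which blocks Nodal and BMPs, had a mean of 7.46 in the epithelium and 2.04 in the mesenchyme, where the signal was near the bottom of the array (5.42, SE 0.08, and 3.32 with the offset of 15). *Chrdl1*, a binder of BMP4, was also higher in the epithelium (3.96, SE 0.09, and 3.56 with the offset), while *Vwc2* (-2.43, SE 0.14, and -1.61 with the offset) and *Bmper* (-2.01, SE 0.05), which also bind BMPs, were higher in the mesenchyme.

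Genes that prepare the ligands were divided as well. Of 7 proteases, 3 were called for the epithelium and 2 for the mesenchyme, with the convertases *Pcsk6* at 2.26 (SE 0.05) and *Pcsk5* at -1.59 (SE 0.08), the metalloprotease *Tll1* at -1.41 (-0.50 with the offset of 15), and *Furin* at 0.51. Of 9 genes listed for latent TGF-beta, its activation and related matrix proteins, 4 were called for the epithelium and 2 for the mesenchyme. The 4 were *Thbs1*, an activator of latent TGF-beta (3.86, SE 0.06), *Itgb6*, the integrin subunit that releases TGF-beta in epithelia (3.52, SE 0.26, and 2.01 with the offset), and the matrix genes *Ltbp2* (1.61) and *Fbn2* (1.31). *Lrrc32* and *Fbn1* were not analysed here.

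Known response genes did not follow 1 tissue. Of 10 genes induced by BMPs in many cells, 7 were called for the mesenchyme and 2 for the epithelium, with a median of -0.78, against -0.03 over all genes. *Id2* (2.61, SE 0.07) and *Msx2* (2.39, SE 0.12) were the 2 in the epithelium, and *Bambi* (-1.64) and *Id4* (-1.62, SE 0.07) led the mesenchyme. Of 8 genes induced by TGF-beta, 5 were called for the epithelium and 2 for the mesenchyme, with a median of 0.65. The 2 in the mesenchyme were the collagen genes *Col3a1* (-1.94) and *Col1a1* (-1.17), which also stand in the mesenchyme marker list, and *Ltbp2* and the cell cycle inhibitor *Cdkn2b* (1.15, SE 0.18, and 0.47 with the offset of 15) led the epithelium. Each of these genes also answers to other signals. *Bambi*, *Skil* and *Ltbp2* were each counted in 2 of the lists. Endothelium markers were higher in the same samples as *Eng* and the 7 BMP response genes called for the mesenchyme, and the part of endothelium was not tested. Of 8 smooth muscle markers, 6 were higher in the same samples as *Thbs1*, *Fbn2* and the 5 TGF-beta response genes called for the epithelium. The part of smooth muscle was not tested either.

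**Figure D5:**
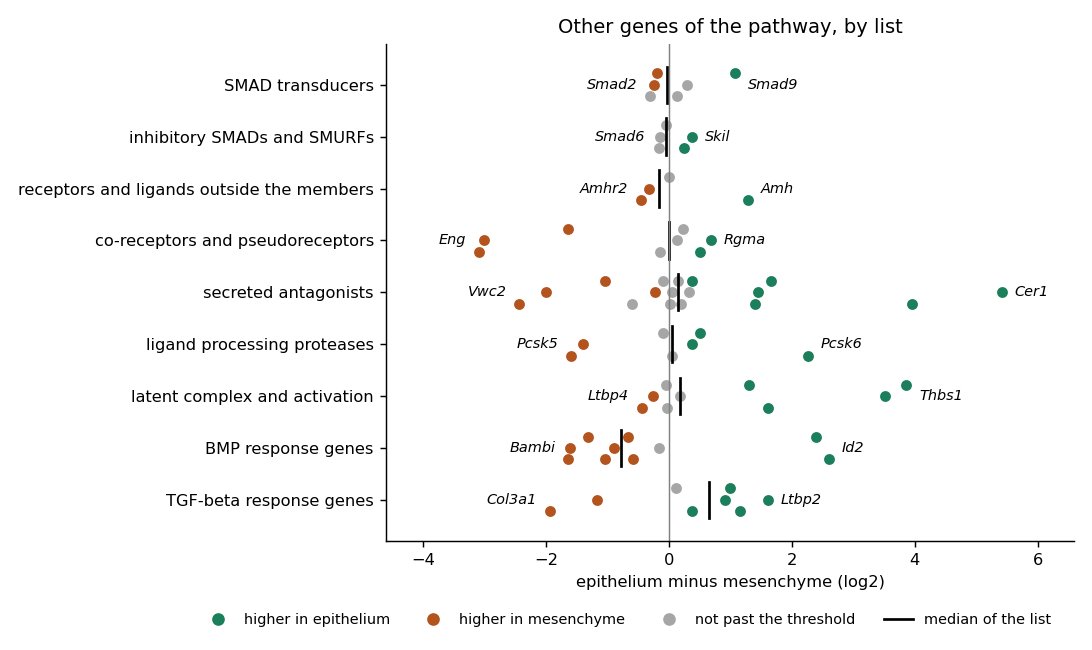
Difference between the tissues (epithelium minus mesenchyme, log2) of the other pathway genes, 1 point a gene, in rows by list, with the gene at each end named and the median of each list as a bar. Secreted antagonists span from -2.43 for Vwc2 to 5.42 for Cer1 (-1.61 and 3.32 with an offset of 15 on the linear signal), the BMP response genes lie mostly on the mesenchyme side, and the SMAD transducers lie between -0.31 and 1.08.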

How the data were processed

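The authors deposited log2 signals for 45220 array features in 8 samples, on 4 arrays. According to the methods, mean spot signals were corrected by normexp with an offset of 1, transformed to logarithms and quantile normalized. No source gives the logarithm's base, which was taken as 2 from how far the values reach. The methods describe averaging of replicate spots and arrays with Cy3 alone, whereas this table holds replicate spots as separate rows and its labels name both dyes. The study gives 3 samples a tissue for this comparison, and 4 were used here.

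Of 33653 features with 1 gene name, 33517 matched RefSeq (GRCm38.p6) and 136 kept the platform's name. The 56 with several names, the 11511 with none and the 523 with a missing value were not used. The brightest feature stood for each gene, 8226 of 18996 genes having several. Tissues were compared unpaired in limma 3.58.1 (lmFit, eBayes; R 4.3.3), and tables were made with pandas 2.3.3. The fit was tested on simulated data. Every member is named, and from each pathway list up to 4 of the largest called differences. The members and lists were chosen with earlier results of these data known.

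Samples of 1 array deviated from their tissue means together (correlations across genes of 0.35, 0.62, 0.53 and 0.47), so the arrays pair the samples. Between arrays the correlations were at most -0.04, a value that subtracting the tissue means pushes down when samples of 1 array agree. Whether the replicates came from separate litters is not stated, and every p-value reflects only how far these samples scatter, which may be technical. The number of arrays limits the precision. Alternatives were the array as a replicate block, other rules for spots, filters, scalings and variance estimates, and leaving out samples. Averaging spots by probe name was not run, since the annotation used here names no probes. Averaging by accession, and an offset of 15 on the linear signal, were chosen after seeing the data.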

Additional observations from a re-analysis of the deposited data

Results flagged for a closer look

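Of 80 groups of 4 samples (40 genes in 2 tissues), 4 held a sample far from the other 3, and chance alone would give about 4. *Inhbb* had such a sample in both tissues. Epithelium replicate 3 read 3.60 where the others read 3.11 to 3.19, and mesenchyme replicate 1 read 4.50 where the others read 4.93 to 5.02. Both samples lie toward the other tissue, and the tissues still did not overlap. *Bmp15* read 1.98 in epithelium replicate 2 and 2.29 to 2.34 in the other epithelium samples. *Mstn* read 2.65 in mesenchyme replicate 4 and 2.05 to 2.15 in the other mesenchyme samples. Both of these genes were dim and were not called.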

How the results depend on the processing

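Under 22 alternatives the counts of called members and of all called genes stayed within 1.5 times their values. With the array as a replicate block, 14 members were called for the epithelium and 12 for the mesenchyme, and 5035 and 5877 of all genes. The replicate block added *Gdf3*, *Gdf11*, *Inhbc* and *Tgfbr2* and changed no other call among the members. Leaving out samples gave 12 to 14 and 7 to 10 members, and 3431 to 3870 and 3999 to 4570 of all genes. Of the 22 called members, 17 kept direction and call in every alternative, and *Acvr2a*, *Inhba*, *Lefty1*, *Nodal* and *Tgfbr1* lost it in at least 1. *Tgfbr2* turned to 0.92 (adjusted p = 9.99e-06 from limma) on its most variable spot, and the cause was not tested. On that spot rule *Acvr2a* was 0.00 and *Inha* 0.58. With all spots of a gene averaged, *Bmp5* was -0.66 and *Inhbb* -0.84. With the offset of 15, *Inhbb* was -0.83, *Lefty1* 0.29 and *Nodal* -0.22, so the size of a difference at low signal depends on the background offset. Of the 18 members not called, 12 were called in no alternative, and 10 were among the dimmest 30% of genes, where signal over background limits what can be seen.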
